A study of Mus musculus with 115 samples.

Results

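Among F2 prostates of the TRAMP by WSB cross, those with transcripts of the spermine-binding protein gene Sbp were compared with those at or near 0. The libraries were chosen by their measured levels of Chga and Sbp. Only libraries with Chga, the neuroendocrine granin, under 1 TPM (a transcript level scaled to the same total in each library) were used. Libraries with Sbp of at least 20 TPM formed the Sbp-expressing side and libraries with Sbp under 2 TPM the Sbp-negative side. Of the 73 libraries with Chga under 1 TPM, 18 were Sbp-expressing and 50 were Sbp-negative, and the 5 others had Sbp between both limits. The 42 remaining libraries of the series had Chga of at least 1 TPM. The rule thus fixed the levels of Sbp and Chga on each side, and every contrast of the sides given here is a description without a test.

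The series holds 1 labelled condition, and no treatment separated the sides. Each library was labelled with a mouse number of its own and as bulk prostate tumor tissue of a transgene-positive F2 male from the cross of TRAMP with WSB/EiJ. In TRAMP mice the probasin promoter drives the SV40 early region in prostate epithelium, so that all mice carried the oncogene and each F2 male had its own mix of parental alleles. According to the study's methods mice were killed at a common age or earlier at a humane endpoint, and RNA of small prostates was taken from the ventral prostate, whereas the labels do not say which part of the gland gave which library.

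The mouse prostate consists of paired ventral, lateral, dorsal and anterior lobes, and the luminal cells of each lobe secrete their own set of proteins into the seminal fluid under the control of androgens. Sbp and the trypsin inhibitor Spink1 are known as products of the ventral lobe. Tgm4, the transglutaminase that clots the copulatory plug, is known from the dorsal and anterior lobes, and Msmb, beta-microseminoprotein, from the lateral lobe. The secreted spermine-binding protein binds the polyamine spermine, which is abundant in prostatic fluid.

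The promoter windows of Sbp, its neighbour Sbpl and both distinct windows of the called Scgb2b genes are shown, since these are the transcripts by which the sides differed. Sbp (chr17:23941672-23945607, plus strand) and Sbpl (chr17:23953084-23955274, minus strand) lie tail to tail on GRCm38 with 7477 bases between their ends. Their longest protein-coding transcripts were 88.1% identical over 833 aligned bases. The 300-base windows below come from RefSeq (GRCm38.p6) and run 5′ to 3′ from 250 bases before to 50 bases after an annotated start. RefSeq holds 3 windows for Sbp, of which the one farthest downstream, at chr17:23941668-23941967 on the plus strand, is shown. It lies almost wholly within the gene span given above, and the hexamer content of the remaining Sbp windows is not given. The windows of the other genes lie at chr17:23955224-23955523 (Sbpl), chr7:33056503-33056802 (Scgb2b17) and chr7:31705705-31706004 (Scgb2b7), all on the minus strand. Capitals mark the hexamer TGTTCT, the core of the androgen response element, or its reverse complement AGAACA.
Sbp: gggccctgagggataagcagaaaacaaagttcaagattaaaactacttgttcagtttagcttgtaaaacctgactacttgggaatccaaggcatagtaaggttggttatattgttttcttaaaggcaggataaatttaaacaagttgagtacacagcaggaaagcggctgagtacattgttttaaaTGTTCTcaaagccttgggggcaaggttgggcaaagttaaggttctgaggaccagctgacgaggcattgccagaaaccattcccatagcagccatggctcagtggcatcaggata
Sbpl: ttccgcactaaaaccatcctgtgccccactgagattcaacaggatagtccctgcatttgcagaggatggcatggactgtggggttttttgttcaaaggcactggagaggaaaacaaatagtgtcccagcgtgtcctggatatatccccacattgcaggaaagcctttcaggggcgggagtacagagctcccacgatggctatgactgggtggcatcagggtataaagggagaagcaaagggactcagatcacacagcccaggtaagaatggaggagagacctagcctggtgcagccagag
Scgb2b17: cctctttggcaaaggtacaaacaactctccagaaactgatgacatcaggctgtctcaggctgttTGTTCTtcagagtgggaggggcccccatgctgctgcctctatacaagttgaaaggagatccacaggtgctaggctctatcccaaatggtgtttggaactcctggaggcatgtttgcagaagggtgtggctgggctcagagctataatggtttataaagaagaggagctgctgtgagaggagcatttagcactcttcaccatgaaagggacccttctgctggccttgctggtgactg
Scgb2b7: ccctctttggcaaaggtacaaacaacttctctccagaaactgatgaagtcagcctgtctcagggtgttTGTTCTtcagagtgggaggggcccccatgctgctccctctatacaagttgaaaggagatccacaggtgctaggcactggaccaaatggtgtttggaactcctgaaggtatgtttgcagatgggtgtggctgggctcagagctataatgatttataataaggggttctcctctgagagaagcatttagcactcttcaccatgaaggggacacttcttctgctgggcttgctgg
The hexamer was found in 1 position in the shown windows of Sbp, Scgb2b17 and Scgb2b7 and in no position of the Sbpl window. Among 32851 such windows of all genes, 19% held it in either orientation, and it was found in 4 of the 10 called genes that were counted. The 4 genes were Mug1, Scgb2b7, Scgb2b15 and Scgb2b17. The Scgb2b windows among them are alike, so that these are not 4 separate matches. Spink5 was left out of that count, and no window was given for 5430419D17Rik and Atp2c2. These matches describe letters only. The Scgb2b15 window differed from that of Scgb2b17 by 0 bases.

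The label of differentiated prostate was checked against luminal markers. Hoxb13, a homeobox factor of the prostate epithelium, had a median of 64.8 TPM in Sbp-expressing libraries (21.2 to 138) and of 62.7 TPM in Sbp-negative libraries (0.02 to 95.8). The luminal keratin Krt8 had medians of 173 and 193 TPM. Against the label stood 2 Sbp-negative libraries. In W1118 Hoxb13 was at 0.05 and Tgm4 at 3.77 TPM, while the proliferation marker Mki67 was at 57.9 and the neuroendocrine factor Foxa2 at 44.1 TPM. In W1154 Hoxb13 was at 0.02 and Tgm4 at 0.64 TPM. Of the 50 Sbp-negative libraries only W1118 fell in the smaller of the 2 parts, of 79 and 36 libraries, into which the first principal component divided the series. The count of called genes is also given without both libraries. Genes at 1 TPM or more numbered from 11811 to 15824 per library on the Sbp-expressing side and from 10358 to 14208 on the Sbp-negative side. TPM keeps no read depth, so that the counting error of a value is unknown.

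Sbp itself ranged from 29.3 to 92090.3 TPM with a median of 1055 TPM in the 18 Sbp-expressing libraries. It ranged from 0 to 1.56 TPM with a median of 0.455 TPM in the Sbp-negative ones. Close to the upper limit lay W5004 at 29.3, W4427 at 30.4 and W4421 at 32.3 TPM. The 5 libraries left between the sides had 2.32 (W4422), 5.37 (W4179), 6.14 (W4508), 6.77 (W242) and 7.61 TPM (W5002). In W5005 Sbp made up 9.21% of all TPM, and Sbp, Sbpl and Spink1 together 16.2%, so that levels of other genes are scaled down there. In bulk tissue, fewer cells of a type and less RNA per cell cannot be told apart.

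Against this difference in Sbp few genes separated the sides. A gene was called where the mean log2(TPM + 1) differed by at least 1 and where at least 90% of the library pairs, with 1 library from each side, went the same way. With the filter set at a mean of 1 TPM, 12971 autosomal genes were compared, of which 13 were called higher in Sbp-expressing libraries, which is 0.1% of the genes, and 0 (0%) were called lower. A difference of at least 1 without the condition on pairs was met by 0.817% of the genes upwards and by 0.332% (43 genes) downwards. The median difference over the 12971 genes was -0.0025 on the log2 scale. For no gene other than Sbp were the sides free of overlap. The called genes were Sbpl, 5430419D17Rik, Scgb2b17, Scgb2b15, Scgb2b7, Spink5, Cbr2 and Tac1, each with a mean of at least 10 TPM on the higher side, together with Crabp1, Slc5a8, Atp2c2, Nxpe2 and Mug1 at lower levels, which were named after their values were seen. Leaving out each of the 68 libraries in turn gave 12 to 23 called genes, the most without W5004 (23) and without W4441 (21), the only libraries that moved the count by over 1.5 times. Without W1118 the count was 13, and without W1118 and W1154 it was 14, each including all 13 genes.

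**Figure D1:**
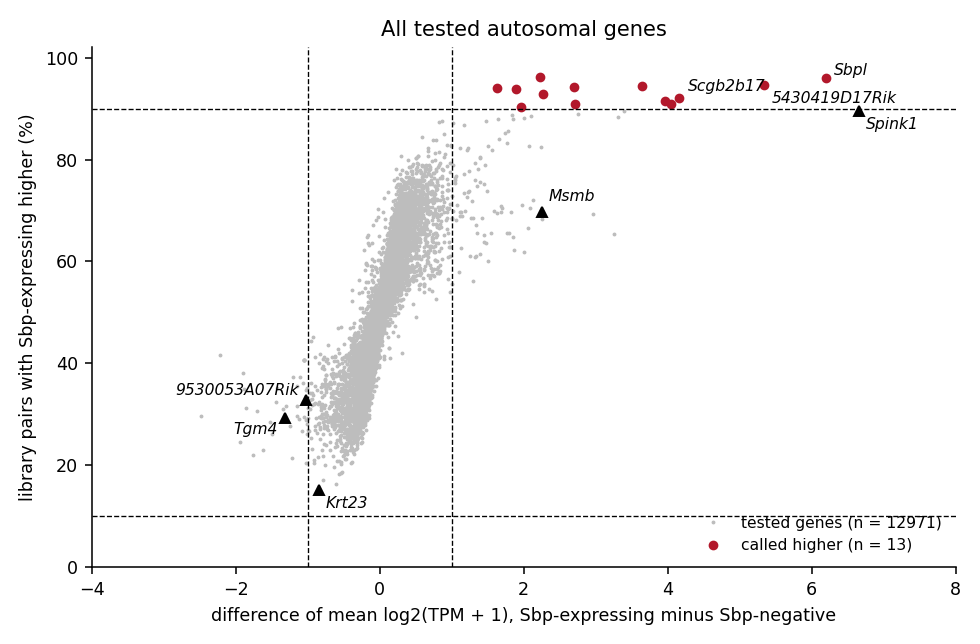
Difference of mean log2(TPM + 1) between Sbp-expressing (n = 18) and Sbp-negative (n = 50) libraries on the x axis against the percent of library pairs with the Sbp-expressing library higher on the y axis, for 12971 autosomal genes (grey). Dashed lines mark differences of 1 and 10% or 90% of pairs, red points the 13 called genes and triangles genes named in the text. The lower left field holds no gene.

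Sbpl, the spermine-binding protein-like neighbour of Sbp, showed the largest difference among the called genes. It ranged from 0.06 to 13181 TPM (median 83.1) in Sbp-expressing libraries and from 0 to 0.37 TPM (median 0.07) in Sbp-negative ones. The mean log2(TPM + 1) differed by 6.20 (SD 4.09 in the Sbp-expressing and 0.09 in the Sbp-negative libraries), with 96% of pairs in this direction. In 16 of 18 Sbp-expressing libraries Sbpl exceeded every Sbp-negative library, and there Sbp was 6.40 to 15.5 times as high as Sbpl. The exceptions were W4347, with Sbp at 248 and Sbpl at 0.06 TPM, and W4427, with 30.4 and 0.13 TPM. W242, between the sides, had Sbp at 6.77 and Sbpl at 0.03 TPM. Among the libraries with Chga of at least 1 TPM, W899 had Sbp at 676 and Sbpl at 0 TPM. In these libraries Sbp was therefore measured without Sbpl.

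Spink1, the serine protease inhibitor of ventral lobe and seminal vesicle secretion, had the largest difference of all tested genes, yet it was not called. Its values ran from 3.05 to 57154 TPM (median 827) in Sbp-expressing libraries and from 0 to 4018 TPM (median 2.32) in Sbp-negative libraries. The difference was 6.65 (SD 3.77 and 3.50), and 89.4% of pairs went this way. The 8 highest Sbp-negative libraries had Spink1 at 149.7 to 4018 TPM and the 42 others at 0 to 87.1 TPM. Of the Sbp-expressing libraries, W4427 at 3.05 and W5004 at 16.3 TPM also lay within the range of those 42. In the 8 libraries the seminal vesicle protein Svs5 was at 12105 to 63656 TPM, and no other Sbp-negative library had Svs5 at 10000 TPM or more. Without the libraries whose 10 seminal vesicle markers summed to 1000 TPM or more, 7 Sbp-expressing libraries at 199 to 57154 TPM lay above all 30 Sbp-negative libraries, at 0 to 43.8 TPM. This cut also removed W4427 and W5004, the Sbp-expressing libraries with low Spink1. The share of all genes that separate fully in this smaller set is not given, and the part of seminal vesicle transcripts was not tested.

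**Figure D2:**
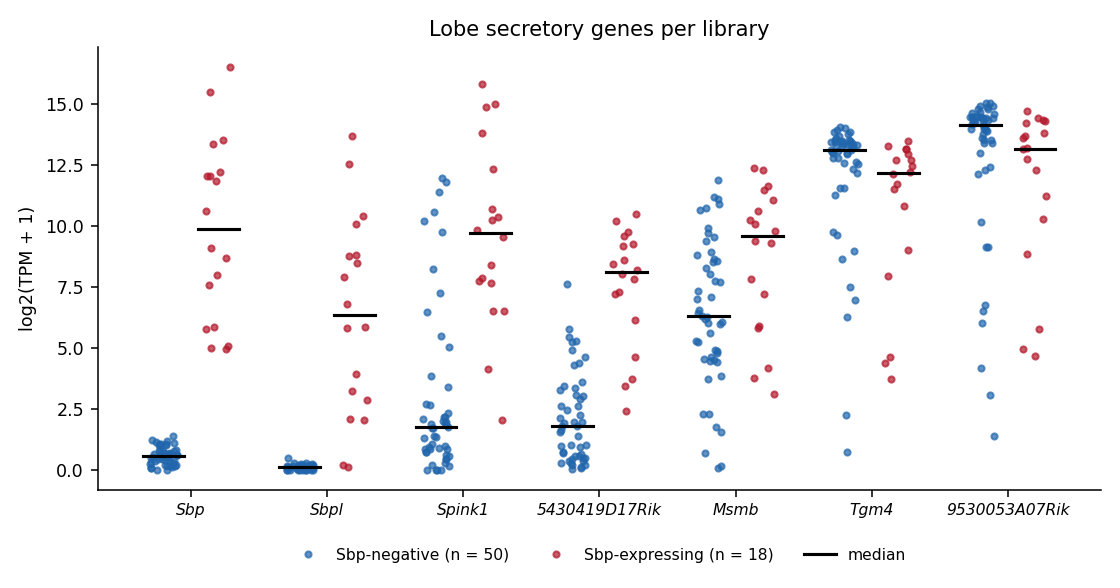
Levels of 7 genes as log2(TPM + 1) in each Sbp-negative (blue, n = 50) and Sbp-expressing (red, n = 18) library, with black bars at the medians. Sbpl and 5430419D17Rik are high on the Sbp-expressing side, Spink1 overlaps at both low and high levels, and Tgm4 and 9530053A07Rik share most of their range.

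5430419D17Rik (chr7:131174402-131306451, plus strand) followed with a difference of 5.33 (SD 2.44 and 1.84) in 94.7% of pairs. It ranged from 4.23 to 1429 TPM (median 275) in Sbp-expressing and from 0.01 to 195 TPM (median 2.44) in Sbp-negative libraries. In 11 of 18 Sbp-expressing libraries it lay above the highest Sbp-negative library.

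The secretoglobins Scgb2b17, Scgb2b15 and Scgb2b7, which encode subunits of the androgen-binding protein family, were called together. They lie on chromosome 7 on the minus strand, Scgb2b7 at chr7:31703779-31705757, Scgb2b15 at chr7:32827683-32829662 and Scgb2b17 at chr7:33054582-33056561. Scgb2b17 ranged from 0 to 1273 TPM (median 20.4) in Sbp-expressing and from 0 to 28.8 TPM (median 0.22) in Sbp-negative libraries, a difference of 4.15 (SD 3.27 and 0.87). Scgb2b7 ranged from 0 to 895 TPM (median 6.14) against 0 to 0.38 TPM (median 0), a difference of 3.64 (SD 3.29 and 0.11). The longest transcripts of Scgb2b17 and Scgb2b15 were 100% identical over 434 bases, so that the split of reads between them is uncertain and their values, with a difference of 3.96 for Scgb2b15, are 1 measurement rather than 2. Scgb2b7 and Scgb2b20 were 98.7% identical over 520 bases. In the table are 40 autosomal secretoglobin genes, of which 9 passed the filter on low values. Of its 19 Scgb2b genes, passed or not, 7 differed by at least 1 upwards and 0 downwards, beside 0.817% and 0.332% of all tested genes. The shares are not over like sets, since tested genes passed the filter and Scgb2b21 (1.02) did not. Scgb2b7, Scgb2b12 and Scgb2b20 reached at most 0.38, 0.11 and 0.18 TPM in Sbp-negative libraries and passed only through the Sbp-expressing side. Several Scgb2b transcripts are alike, also Scgb2b7 and Scgb2b12 (95.1% over 511 bases), so that the 7 genes are not 7 separate measurements. Scgb2b27 reached 25241 TPM in 1 Sbp-negative library, while the median of that side was 0 TPM, and it was not called, with a difference of 3.39 in 89.6% of pairs. Scgb1b27 and Scgb2b26 also had their highest values on the Sbp-negative side, at 32549 and 6125 TPM. In Sbp-expressing libraries they reached 11.1 and 0.36 TPM, and their differences were 0.86 and -0.18.

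The other called genes had lower levels. Spink5, a secreted inhibitor of serine proteases, ranged from 0.11 to 623 TPM (median 24.5) against 0 to 5.52 TPM (median 0.23), a difference of 4.05 (SD 2.87 and 0.70). Cbr2, a carbonyl reductase, had medians of 95.98 and 10.2 TPM and a difference of 2.71 (SD 1.65 and 0.75), and it was present on both sides, at 3.96 TPM or more in all 68 libraries. Tac1, the precursor of substance P, had medians of 5.71 and 0.15 TPM and a difference of 2.70 (SD 2.06 and 0.22).

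Among the 5 called genes below 10 TPM, Crabp1, a retinoic acid-binding protein, differed by 2.27 and Slc5a8, a transporter of monocarboxylates, by 2.23. Atp2c2, a calcium and manganese pump of the secretory pathway, differed by 1.96, Nxpe2 by 1.90 and the protease inhibitor murinoglobulin Mug1 by 1.63. For Mug1 the difference rested on values with a median of 1.195 TPM in Sbp-expressing libraries, and W1118 on the other side reached 53.6 TPM. None of these 5 genes reached a median of 10 TPM.

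**Figure D3:**
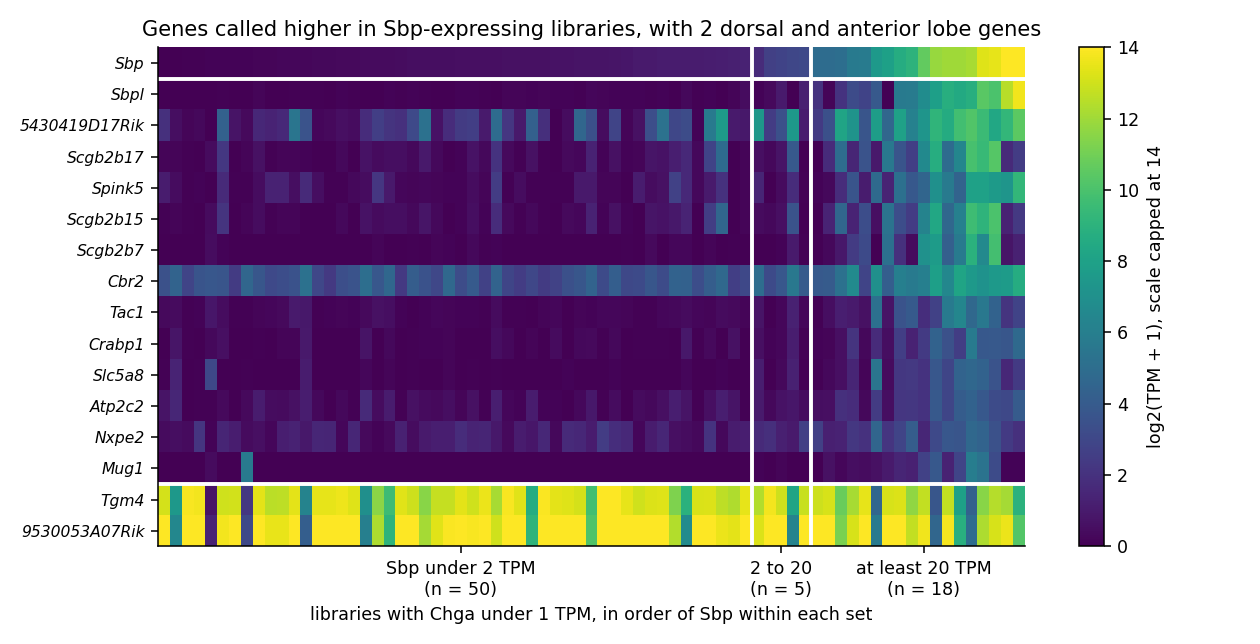
Colour shows log2(TPM + 1), capped at 14, of Sbp, the 13 called genes, Tgm4 and 9530053A07Rik (rows) in the 73 libraries with Chga under 1 TPM (columns, in order of Sbp within each of the 3 sets divided by white lines). The called genes are brightest among the Sbp-expressing libraries at the right, whereas Tgm4 and 9530053A07Rik are bright across all 3 sets with single dark columns.

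Tgm4 and 9530053A07Rik had lower means in Sbp-expressing libraries, but the sides overlapped almost fully. Tgm4 (chr9:123034726-123067561, plus strand) ranged from 12.2 to 11398 TPM (median 4562) in Sbp-expressing and from 0.64 to 16895 TPM (median 8789.8) in Sbp-negative libraries. The difference was -1.32 (SD 3.29 and 2.86), and the Sbp-negative library was higher in 70.8% of pairs. 9530053A07Rik (chr7:28129466-28164811, plus strand) had medians of 9188 and 18153 TPM and a difference of -1.03 (SD 3.39 and 3.34). Neither gene was called. Of the Sbp-expressing libraries, 13 of 18 had Tgm4 at 1785 TPM or more, so that Sbp and Tgm4 were measured in the same library. The other 5 had Tgm4 at 12.2 (W4414), 19.5 (W4183), 23.8 (W4548), 246.97 (W4079) and 517 TPM (W5005), with Sbp at 3642, 4652, 186, 4172.6 and 92090.3 TPM. All 5 libraries with Sbp from 20 to under 100 TPM were among the 13 with high Tgm4. The 9 libraries with Sbp of at least 1000 TPM fell into both groups. On the Sbp-negative side 9 of 50 libraries had Tgm4 under 1000 TPM. Low Tgm4 thus occurred on both sides.

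Msmb of the lateral lobe was higher in Sbp-expressing libraries by 2.25 (SD 3.004 and 3.02), in 69.8% of pairs. It ranged from 7.60 to 5321 TPM (median 772) against 0.04 to 3805 TPM (median 76.8), and 8 of 18 and 6 of 50 libraries had 1000 TPM or more. It was not called.

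Of the 25 genes of the lobe secretory list, Pbsn is X-linked, with medians of 1.21 and 1.40 TPM, and Sbp was used by the rule. Of the 23 others, 21 passed the filter, all but Acpp (prostatic acid phosphatase) and Folh1, with differences of 0.76 and 0.15. Counted over all 23, 8 genes differed by at least 1 upwards and 3 downwards, with a median of 0.57, beside 0.817% and 0.332% of all tested genes and their median of -0.0025. Without W1118 and W1154, 12 of the list differed by 1 in size instead of 11. Only Sbpl was called. The 8 genes were Sbpl, Spink1, Msmb, Crisp1 (2.96), Wfdc3 (1.46), Timp4 (1.45), the stress protein Nupr1 (1.40) and Pigr (1.22), the receptor that carries immunoglobulin into secretions. The 3 genes were Tgm4, 9530053A07Rik and Gsdma (-1.05), a gasdermin. Between them lay the beta-defensin Defb50 at 0.95, Apof at 0.64, the chaperone Clu at 0.57, Ltf (lactoferrin) at 0.47, Wfdc15b at 0.30, Lcn2 at 0.18, Azgp1 at 0.14, Cyp4b1 at 0.01, the disulfide isomerase Agr2 at -0.23 and the lipase-related Pnliprp1 at -0.80. Among these 23 genes the difference exceeded the SD of both sides for Sbpl, Spink1, Acpp and Nupr1 only.

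Luminal, androgen response and polyamine genes held no called member. Of the 14 luminal identity genes 0 differed by 1 in size (median -0.26), from -0.61 in Prom1 to 0.35 in Hoxb13. Of the 20 androgen response genes 0 differed by 1 (median 0.16), from -0.70 in Acsl3 to 0.75 in the androgen-induced chaperone Fkbp5 and 0.79 in Steap4. Among the 20 genes of polyamine synthesis, transport and control, whose product spermine is bound by the spermine-binding protein, 0 differed by 1 (median -0.03), with the largest in Amd2 (0.87), a copy of the S-adenosylmethionine decarboxylase gene, and Arg2 (0.50), an arginase.

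Genes for folding and export of proteins in the endoplasmic reticulum and proliferation genes held no called member. Of 27 folding and export genes 23 had a difference below 0 (median -0.34), beside 49.4% of all tested genes above 0, and 1 differed by at least 1. Creld2 differed by -1.02 (SD 1.44 and 1.37), the disulfide isomerase Pdia4 by -0.83 and the chaperone Hspa5 by -0.64. Of the 15 proliferation genes 14 had a difference below 0 (median -0.67), with Top2a at -0.86 (SD 1.02 and 1.11). The proximal duct list had 0 of 7 and the basal list 0 of 8 genes with a difference of 1, with Krt14 of basal cells at -0.79.

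Some genes with lower values on the Sbp-expressing side were named after their values were seen. Krt23, a keratin, was higher in the Sbp-negative library in 84.9% of pairs, with medians of 15.6 and 27.9 TPM and a difference of -0.85. Cldn8, a tight junction claudin, differed by -0.61 and the desmosomal cadherin Dsc2 at -0.80. The folate receptor Folr1 differed by -1.22, with medians of 11.6 and 32.3 TPM, in 78.6% of pairs.

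Markers of other tissues varied with the sides in part. The sum of the 10 seminal vesicle markers was 1000 TPM or more in 11 of 18 Sbp-expressing libraries (13.1 to 98809 TPM, median 2580.4) and in 20 of 50 Sbp-negative ones (4.73 to 178340.0 TPM, median 166), and 3 of 10 markers differed by at least 1 upwards. Akr1b7, the aldose reductase-like protein of the vas deferens, was at 100 TPM or more in 12 of 18 and 12 of 50 libraries (difference 3.25, SD 4.69 and 4.005). Of the 8 genes of its list, which summed to 0.32 to 6460 TPM against 0.30 to 9453 TPM, Akr1b7 and Crisp1 differed by at least 1, while the epididymal Lcn8 was at 0 in 17 of 18 and 45 of 50 libraries. The adipose list summed to 2.39 to 2359 TPM (median 517) against 3.97 to 4267 TPM (median 85.3), with 4 of 5 genes higher by at least 1 and the adipokine Adipoq at 1.70. Skeletal muscle genes summed to 35.5 to 950.2 TPM against 1.21 to 2939 TPM, with 1 of 7, Tnnt3, differing by 1.01. Urothelium genes summed to 22.7 to 164 TPM against 1.27 to 244.2 TPM, with 1 of 5, Upk1a, differing by 1.35. Svs5, Akr1b7, Adipoq and Upk1a were above 0 in every library of both sides. No gene of these lists was called. Their part in the lobe gene differences was not tested. Without the libraries of high seminal vesicle sum 20 genes were called, 12 of the 13 among them.

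Lists of the remaining cell types held no gene with a difference of 1 in size. Their medians were 0.04 for 11 neuroendocrine genes other than Chga, of which 2 passed the filter, -0.26 for 10 smooth muscle, 0.37 for 11 fibroblast, 0.05 for 14 leukocyte, 0.39 for 6 endothelial and 0.48 for 4 erythroid genes. Their summed levels overlapped between the sides.

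Within the Sbp-expressing side, where the rule set no upper limit, Sbp was at 1000 TPM or more in 9 of the 18 libraries. The 2 highest, W5005 at 92090.3 and W5000 at 46295 TPM, came from mice numbered in the 5000s. Their Scgb2b17 levels were 4.61 and 2.21 TPM, whereas the 7 libraries of mice numbered in the 4000s with Sbp of at least 1000 TPM had Scgb2b17 at 29.3 to 1273 TPM with Sbp at 1571 to 11627 TPM. Spink5 did not follow this pattern, with 623 and 157 TPM against 20.9 to 260 TPM. W5004, the lowest Sbp-expressing library, had Slc26a4, the anion exchanger pendrin, at 0, Abo at 0.60 and Scgb2b17 at 0 TPM, and 5430419D17Rik at 4.23 TPM, the lowest of its side.

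**Figure D4:**
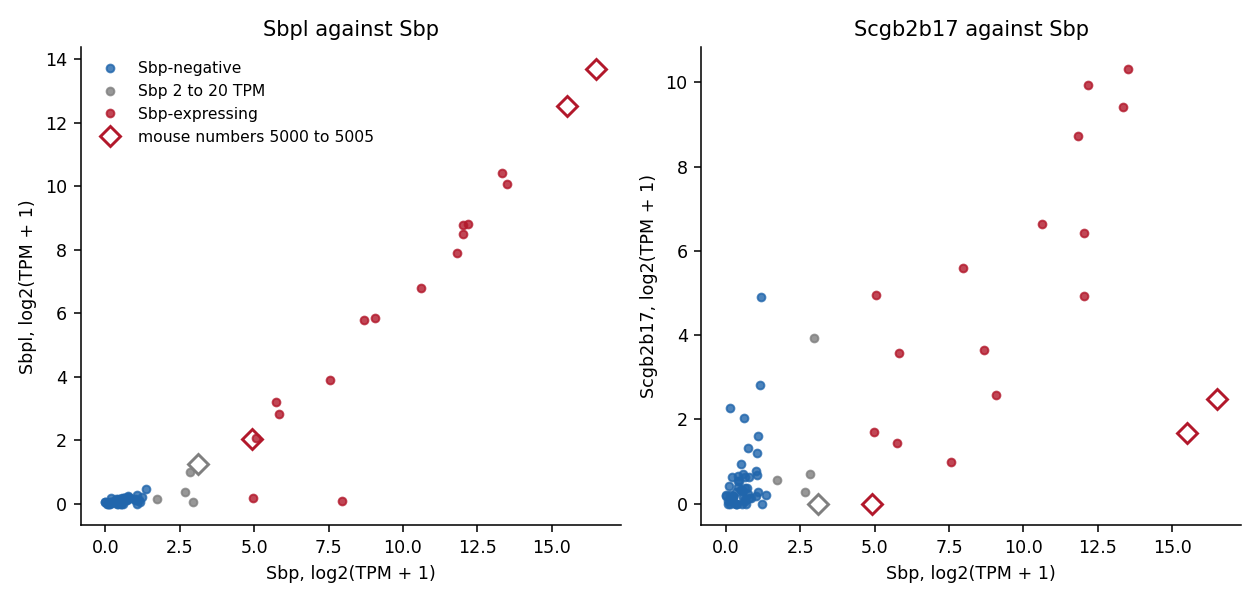
Sbpl (left) and Scgb2b17 (right) against Sbp, all as log2(TPM + 1), in the 73 libraries with Chga under 1 TPM, with diamonds for mice numbered in the 5000s. Sbpl follows Sbp except in W4347, W4427 and W242, while Scgb2b17 is at 4.61 TPM or less in the diamonds at any level of Sbp.

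Genes with the pattern most like Sbp over the 73 libraries with Chga under 1 TPM were ranked by Spearman's rho as a description. Sbpl came first (0.79), followed by 5430419D17Rik (0.68), Scgb2b7 (0.65), Scgb2b12 (0.64), Scgb2b17 (0.63), Scgb1b20 (0.62), Nxpe2 (0.62) and Mug1 (0.62). All libraries are scaled to a common total, which these values share. Tgm4 had a rho of -0.21 and Spink1 of 0.55.

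A run of libraries at the end of the table was set apart by Sbp itself. Of the first 92 columns 23 had Sbp of at least 5 TPM. Counted back from the last column, 23 libraries in a row had Sbp of at least 5 TPM (lowest 5.01), a level fixed by this choice. These last columns held 4 Sbp-expressing libraries (W4347, W5000, W5004 and W5005). Also in them were 1 library between the sides and 18 with Chga of at least 1 TPM. By the choice they held 0 Sbp-negative libraries, so that within them column position and Sbp cannot be told apart. In the sample order of the series, all libraries of the last columns but W4347 and W1512 stood together at the end. That grouping does not depend on Sbp, and it also held 0 Sbp-negative libraries. The ratio of Sbp to Sbpl was 4.31 to 9.71 in 22 of the 23 and 4136 in W4347. Without the 4 libraries the count of called genes was 25, which included all 13. Abo, Slc26a4, Scgb2b27, Entpd8 and Rnf186 were the genes added here that were also added without W5004, among mice numbered in the 4000s and with Sbp of at least 50 against under 1 TPM. Abo, a glycosyltransferase, had medians of 61.1 and 3.82 TPM over all libraries of the sides.

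**Figure D5:**
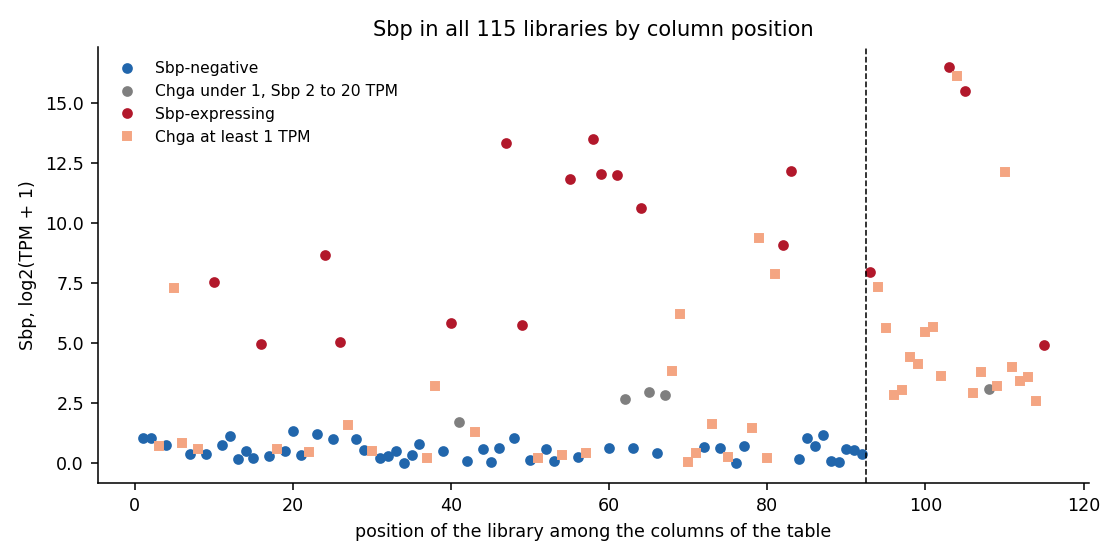
Sbp as log2(TPM + 1) in every library of the series against their position among the columns of the table, coloured by set. The dashed line marks the start of the last 23 columns, chosen because every library there has Sbp of at least 5 TPM (lowest 5.01).

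The libraries that the rule left out allowed a test of which genes followed Sbp. Only 1 set was large enough, the 35 libraries with Chga of at least 1 TPM in the smaller part of the first principal component, where Tgm4 had a median of 1.80 TPM and Sbp ran from 0.04 to 676 TPM. The sets of 5 and 7 libraries were not fitted. A slope of log2(TPM + 1) on log2(Sbp + 1) was fitted with limma for 14848 autosomal genes and its p-values were adjusted over all of them (Benjamini-Hochberg). It was positive at an adjusted p under 0.05 for 2 genes (0.0135%) and negative for 0 (0%), while at an unadjusted p under 0.05 limma gave 246 positive and 765 negative slopes. Spink1 had a slope of 0.91 (SE 0.04, limma adjusted p = 1.46e-17) and Sbpl of 0.35 (SE 0.05, limma adjusted p = 0.0017). Of the other called genes that were tested 0 passed, with Spink5 at 0.26 (adjusted p = 0.262) and 5430419D17Rik at 0.43 (adjusted p = 0.626) in limma. The others tested were Scgb2b17, Cbr2, Tac1 and Crabp1. Scgb2b15, Scgb2b7, Slc5a8, Atp2c2, Nxpe2 and Mug1 did not pass the filter on low values in these libraries and were not tested.

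Of these 35 libraries 16 were in the last 23 columns, with Sbp at 5.01 to 161 TPM, and 19 before them, of which 4 had Sbp at 5 TPM or more. Within the 19 libraries Spink1 had a slope of 0.87 (limma adjusted p = 1.68e-11), and it was the 1 gene that passed there. Sbpl did not reach a mean of 1 TPM in those 19 libraries and was not tested. With the last columns as a covariate the slope of Sbpl was 0.23 (limma adjusted p = 0.255), and 6 genes passed, namely Spink1 (0.96), 9530002B09Rik (0.90), 5430419D17Rik (0.70), Pigr (0.64), Abo (0.48) and Spink5 (0.40). Without W1512 and W899, the libraries farthest from the Sbp median, limma gave 931 positive and 2443 negative slopes, and 2 and 1 when the last columns entered that fit as a covariate. The 2 positive slopes of this last fit were those of Spink1 (0.91) and Sbpl (0.42, limma adjusted p = 3.11e-06). Because the last columns were chosen by Sbp, their covariate and Sbp are not independent. The covariate counted W1512 with the last columns, although it stood apart from them in the sample order.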

How the data were processed

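RNA-seq of prostate tissue, 1 mouse per library, was used. The authors depleted ribosomal RNA, and their processing notes name CASAVA 1.8.2, Bowtie2 2.2.5, RSEM 1.2.20 and GRCm38. The values are the TPM that the authors deposited, which keep no depth, so no count model or counting interval was used. RSEM divides reads between similar transcripts. Gene names and positions came from GENCODE M21, which held 45136 of 45699 genes, and all 228 listed genes matched.

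Sides were cut at the stated TPM limits, and the members and gene lists were chosen with earlier results of these data known. Differences were taken on log2(TPM + 1), with SDs, over autosomal genes whose mean reached 1 TPM, without Sbp and Chga, and with the share of library pairs (ties counted evenly). Lists were described over all autosomal members. Slopes outside the rule were fitted with limma 3.58.1 (trend), two-sided, in sets of at least 8 libraries. Transcripts were compared with BLASTN 2.17.0. The scripts were tested on simulated data. The genes named are all members of the lobe secretory list, the called members or those of largest difference in other lists, up to 12 called genes per direction whose mean reached 10 TPM on the higher side, and the 8 genes most like Sbp. Further names were added once values were known and are marked so.

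Alternatives were a pseudocount of 0.1 TPM, median-of-ratios scaling, rescaling without the 20 largest genes, no filter, other limits for Sbp (50 and 1 TPM) and Chga (0.5 TPM), and subsets of libraries. The subsets without W1118, W1154, W5004, each library in turn or the last columns, the limit of 80% of pairs and the column covariate were chosen after the data were seen.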

Additional observations from a re-analysis of the deposited data

Results flagged for a closer look

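Among the 5 libraries with Sbp between both limits, single libraries stood far from the other 4. In W242 Tgm4 was at 292.7 TPM, 9530053A07Rik at 77.06 TPM, Pnliprp1 at 0.47 TPM and Gsdma at 2.48 TPM, each the lowest of the 5. In the same library Scgb2b17 was at 14.32, Scgb2b15 at 10.89, Scgb2b7 at 1.04, Scgb2b12 at 0.15 and Scgb1b20 at 0.11 TPM, each the highest of the 5. In W5002 Azgp1 was at 8.46 TPM, the lowest of the 5. Chance alone flags about 1 in 20 such groups, and many genes were looked at, so that these are given as values only. Both sides held more than 10 libraries and were not examined in this way.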

How the results depend on the processing

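TPM keeps no depth, so that low values cannot be given a counting error. No paired analysis was possible because each mouse gave 1 library and both sides share no replicate number. The 13 genes called higher became 27 with Sbp of at least 50 against under 1 TPM, 20 without libraries of seminal vesicle sum 1000 TPM or more, 22 among mice numbered in the 4000s, 25 without the last 23 columns, 38 at 80% of pairs and 23 without W5004. All 13 were included in each of these except 12 without the high seminal vesicle sums, and 11 of 13 were called with Chga under 0.5 TPM. The number of genes called lower was 0 in each alternative. Scaling moved the median difference of all genes to between -0.06 and 0.06, under 0.1. Of the limma slopes outside the rule, 2 genes were positive, and 6 with the last columns as a covariate, 1 only before the last columns and 931 without the 2 libraries farthest on Sbp. The negative slopes numbered 0, but 2443 without those 2 libraries and 1 when the last columns were also a covariate. The cause of these shifts was not tested. No called gene changed the sign of its difference in any alternative run.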
